A study of Arabidopsis thaliana with 12 samples.

Results

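The experiment described here is the induction of GFP-TFIISmut, a GFP-tagged mutated form of the transcript elongation factor TFIIS, for 24 h in Arabidopsis thaliana seedlings, set against the mock treatment of the same line. It is followed across all genes of the deposited table. A gene was eligible when its identifier was not repeated, it was above 0 in both pools, and its larger value reached 5 FPKM, a read density corrected for gene length and sequencing depth. Of 32705 rows, 14456 were eligible. The groups are GFP-TFIISmut seedlings given 2 mM estradiol, a dose taken from the labels, and GFP-TFIISmut seedlings given ethanol. Beside them stand GFP-TFIIS seedlings, which carry the tagged protein without that mutation, given estradiol or ethanol in the same way. All 4 groups were Columbia seedlings of 10 days in the tfIIs-1 background, an insertion allele (SALK_056755) of the native TFIIS gene, which the controls carry too. The labels do not say which residues TFIISmut alters, which promoter drives the transgenes before estradiol, or whether a line is 1 transformant. Each group had 3 mRNA libraries, which the authors combined into a single value per gene, so the values carry no error, and no difference could be tested against the spread between seedlings. Which column is which group is read from abbreviated headers, as explained with the processing.

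TFIIS binds RNA polymerase II that has stalled and backtracked on DNA, and it stimulates the polymerase to cleave its own transcript so that synthesis can resume. Mutated forms of TFIIS that bind the polymerase but cannot stimulate this cleavage are known from yeast and animal work as inhibitors of elongation. In seedlings, mRNA profiles are dominated by photosynthesis and translation, and genes of defence and stress responses are mostly at low levels without a challenge.

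TFIIS itself (AT2G38560, TAIR10.1, chromosome 2, 16134543 to 16136695, protein-coding) sets the pools read as induced apart from the mocks. Its row stood at 87.0 FPKM in TFIISmut induced and 17.6 FPKM in TFIISmut mock, against 742 FPKM in TFIIS induced and 21.1 FPKM in TFIIS mock. The row does not show which line carries the mutated form. Transgene and disrupted native gene cannot be told apart in it. Between 13671 and 13939 genes reached 5 FPKM in a pool, and total FPKM was between 900276 and 1055590. The reads behind them are unknown.

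A gene is called higher or lower here when its log2(FPKM + 1) lay 1 or more apart between the pools, a 2-fold change on that scale. By this rule 796 of the 14456 genes were higher in TFIISmut induced than in TFIISmut mock, 5.51%, and 244 were lower, 1.69%. The higher genes also stood farther out: 270 differed by 2 or more on the log2 scale, 96 by 3 or more and 25 by 4 or more, while 43 lower genes reached -1.5, 11 reached -2 and 0 reached -3. The higher genes together took 5.69% of all FPKM in TFIISmut induced and 1.69% in TFIISmut mock. The lower genes took 1.01% in TFIISmut induced and 2.62% in TFIISmut mock. The higher genes were thus mostly at low levels without induction, with a median of 22.9 FPKM in TFIISmut induced and 5.30 FPKM in TFIISmut mock, and the lower genes had medians of 10.2 FPKM in TFIISmut induced and 25.6 FPKM in TFIISmut mock. In TFIIS induced and TFIIS mock, the higher genes had medians of 6.03 and 6.86 FPKM. A gene under 5 FPKM in TFIISmut mock was eligible only if it was higher in TFIISmut induced, so the counts and medians of lists below describe their eligible genes and not all members. Each list count is to be read beside the shares over all eligible genes, 5.51% higher and 1.69% lower.

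**Figure D1:**
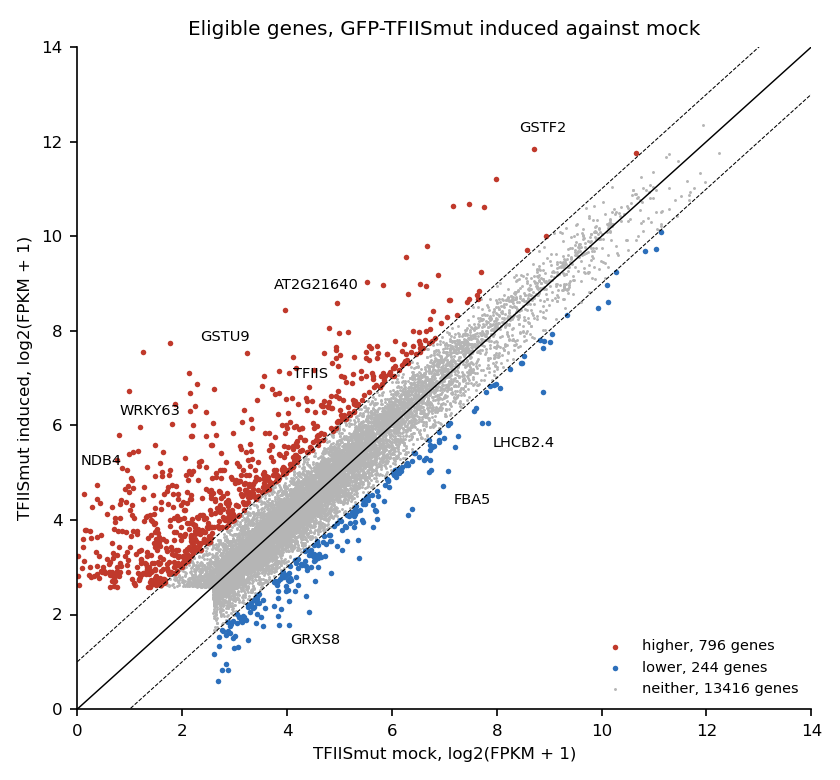
Each point is an eligible gene, with log2(FPKM + 1) in TFIISmut mock across and in TFIISmut induced up; the solid line marks equal values and the dashed lines a difference of 1. The 796 higher genes (red) reach far above the line at low mock levels, and the 244 lower genes (blue) stay near it.

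The TFIIS pools, which the rule does not use, were set beside these genes. Of the 796 higher genes, 777 had their highest value of all pools in TFIISmut induced, and 542 exceeded the 3 others by 2-fold. Of the 244 lower genes, 240 had their lowest value there, and 112 were below the 3 others by 2-fold. The rule itself sets TFIISmut induced apart from TFIISmut mock, so nothing is read from these counts. Of the 796 higher genes, 485 were also eligible in TFIIS induced against TFIIS mock, where 17 were higher and 16 lower; in that comparison 0.69% of 14203 genes were higher and 0.789% lower. Between the mock pools, 0.248% of 14113 genes were higher in TFIISmut mock and 0.787% lower. The robust SD of all differences (from the median absolute deviation) was 0.39 for TFIISmut induced against its mock, and 0.18 both for TFIIS induced against its mock and between the mock pools.

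Most eligible genes of mitochondrial stress and alternative respiration were higher. Alternative oxidases and external NAD(P)H dehydrogenases let electrons bypass the proton-pumping complexes of the respiratory chain, and their genes are known to respond when that chain is impaired. Of 19 such genes, 13 were eligible; 9 were higher and 0 lower, and the median difference was 1.67, beside 0.05 over all eligible genes. In TFIIS induced against TFIIS mock the list's median was -0.23. NDB4 (AT2G20800), an external NAD(P)H dehydrogenase, stood at 32.4 FPKM in TFIISmut induced and 0.939 FPKM in TFIISmut mock, with 0.322 FPKM in TFIIS induced and 0.398 FPKM in TFIIS mock, a difference of 4.11 on the log2(FPKM + 1) scale. AOX3 (AT1G32350, also AOX1D), an alternative oxidase, stood at 19.6 FPKM in TFIISmut induced and 0.342 FPKM in TFIISmut mock, with 1.01 FPKM in TFIIS induced and 0.728 FPKM in TFIIS mock. BCS1 (AT3G50930), an AAA ATPase of the mitochondrial outer membrane, stood at 53.4 FPKM in TFIISmut induced and 3.48 FPKM in TFIISmut mock, with 3.03 FPKM in TFIIS induced and 4.74 FPKM in TFIIS mock. In all 3 genes the TFIISmut induced pool was the high one, and the 3 other pools were at 4.74 FPKM or less. These 3 genes were thus eligible only through TFIISmut induced, so the count and median do not rank this list among the others.

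NAC13 (AT1G32870), a membrane-bound transcription factor of mitochondrial retrograde signalling, had 44.2 FPKM in TFIISmut induced and 7.72 FPKM in TFIISmut mock, with 4.97 FPKM in TFIIS induced and 6.48 FPKM in TFIIS mock. The related factor gene NAC017 had 22.4 FPKM in TFIISmut induced and 18.9 FPKM in TFIISmut mock, a difference of 0.23 that does not meet the rule. NDB2, a second external dehydrogenase gene, had 60.8 FPKM in TFIISmut induced and 18.5 FPKM in TFIISmut mock, while NDB1 had 14.01 FPKM in TFIISmut induced and 13.2 FPKM in TFIISmut mock. So the members did not move as a block: NDB1, the uncoupling protein gene PUMP4 and NAC017 stood within 0.23 of their mock level. Outside this list, TIM17-1 (AT1G20350), a subunit of the inner membrane import machinery, had 24.2 FPKM in TFIISmut induced and 0.881 FPKM in TFIISmut mock, while the 7 other genes annotated as TIM translocases were not called. The mitochondrial small heat shock protein gene HSP23.5 had 142 FPKM in TFIISmut induced and 21.9 FPKM in TFIISmut mock. HSP17.6, annotated as a class II heat shock protein and not as mitochondrial, had 9.13 FPKM in TFIISmut induced and 1.25 FPKM in TFIISmut mock. Of 29 eligible heat shock protein genes, 7 were higher and 0 lower, with a median of 0.29.

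Genes annotated with the plant-specific domain DUF295 were picked out after their values were seen. Of 11 eligible genes 8 were higher and 0 lower. These 8 had 1.57 FPKM or less in TFIISmut mock and were eligible only through TFIISmut induced, so the count shows nothing about the family. The 3 others, which had 6.83 FPKM or more in TFIISmut mock, were not called, at -0.14, 0.26 and 0.68. AT5G54560 had 18.4 FPKM in TFIISmut induced and 0.216 FPKM in TFIISmut mock, and AT5G54450 had 12.7 FPKM in TFIISmut induced and 0.105 FPKM in TFIISmut mock. The other 6 higher ones stood between 6.24 and 11.4 FPKM in TFIISmut induced and between 0.304 and 1.57 FPKM in TFIISmut mock. All 8 lie on chromosome 5, and copies of this family resemble each other closely, so reads may have been shared between them.

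The 300 bases before the annotated start of each gene were searched for short motifs, on both strands. The mitochondrial dysfunction motif (MDM) is known from promoters of genes that respond to impaired mitochondria. It was searched in a loose form, CTTG, any 5 bases, then CANG, which leaves the base before the last G open. Matches may therefore include letters that are not the motif proper. The letters of this loose form were found in 54 of 737 promoters of higher protein-coding genes, 7.33%. They stood in 5 of 223 promoters of lower genes, 2.24%, and in 212 of all 13533 promoters searched, 1.57%. The share grew with the size of the difference: 12.6% of the 253 promoters of genes that were 2 or more higher on the log2 scale held it, 4.55% of the 484 between 1 and 2, and 1.14% of the 5597 between 0 and 0.5. Read the other way, 54 of the 212 genes with these letters were higher, 25.5%, and 5 were lower, and their median difference was 0.23. Among the higher ones were 6 of the 8 higher DUF295 genes above, NDB2, HSP23.5, HSP17.6, the alcohol dehydrogenase gene ADH1 and the cytokinin response factor genes CRF5 and CRF6. Of the 13 eligible genes on the mitochondrial list, 4 held the letters in this window, among them NDB2 and AT2G21640. These shares, and those of the other motifs below, are over eligible genes only. Genes under 5 FPKM in TFIISmut mock, such as the higher DUF295 genes, were eligible only through TFIISmut induced. Genes with the letters that stayed low in both pools are therefore not counted, and no rate for the motif is read from the shares.

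Of the promoters with these letters, 3 whose genes were among those that differed most, and that of AT2G21640 (UPOX), a gene for a mitochondrial protein widely used as a marker of oxidative stress, are shown because they carry this pattern. They are from TAIR10.1, read 5′ to 3′ on the strand of the gene and ending at the base before the annotated start. The matched letters are in capitals, on whichever strand they lie. They are AT3G58150 (chr3:21534136-21534435, minus strand), AT1G57630 (chr1:21345145-21345444, plus strand), AT3G28580 (chr3:10715297-10715596, plus strand) and AT2G21640 (chr2:9254078-9254377, plus strand).
AT3G58150: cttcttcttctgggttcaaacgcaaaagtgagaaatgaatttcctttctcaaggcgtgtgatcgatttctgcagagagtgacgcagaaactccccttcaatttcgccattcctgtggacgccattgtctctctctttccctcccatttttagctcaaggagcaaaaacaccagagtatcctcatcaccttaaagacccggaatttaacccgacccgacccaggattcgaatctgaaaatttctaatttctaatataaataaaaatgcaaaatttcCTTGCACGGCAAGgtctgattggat
AT1G57630: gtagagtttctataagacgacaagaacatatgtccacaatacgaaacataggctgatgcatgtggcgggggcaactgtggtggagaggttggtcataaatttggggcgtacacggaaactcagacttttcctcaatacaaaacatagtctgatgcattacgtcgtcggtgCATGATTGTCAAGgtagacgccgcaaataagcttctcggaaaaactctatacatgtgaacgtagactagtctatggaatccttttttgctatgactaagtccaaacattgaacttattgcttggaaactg
AT3G28580: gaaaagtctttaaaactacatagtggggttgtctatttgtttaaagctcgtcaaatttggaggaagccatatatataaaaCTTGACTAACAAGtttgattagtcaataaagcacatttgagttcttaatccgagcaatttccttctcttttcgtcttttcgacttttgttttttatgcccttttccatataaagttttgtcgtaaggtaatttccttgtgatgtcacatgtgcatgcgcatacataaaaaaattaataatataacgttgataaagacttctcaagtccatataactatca
AT2G21640: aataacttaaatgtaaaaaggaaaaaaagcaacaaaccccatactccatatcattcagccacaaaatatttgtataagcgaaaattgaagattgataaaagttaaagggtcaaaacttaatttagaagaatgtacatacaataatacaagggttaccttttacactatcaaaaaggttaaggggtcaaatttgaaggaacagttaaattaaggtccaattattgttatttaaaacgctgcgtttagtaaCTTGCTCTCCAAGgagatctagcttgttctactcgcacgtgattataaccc
AT3G58150 encodes an OPA3-like protein and stood at 86.4 FPKM in TFIISmut induced and 2.62 FPKM in TFIISmut mock, with the motif beginning 25 bases before the start. AT1G57630, a Toll/interleukin-1 receptor (TIR) domain protein, stood at 103 FPKM in TFIISmut induced and 3.45 FPKM in TFIISmut mock. Its match lies 130 bases before the start on the opposite strand, where it ends in CATG, and rests on the open base of the loose form. AT3G28580, annotated as a P-loop nucleoside triphosphate hydrolase, had 33.1 FPKM in TFIISmut induced and 0.811 FPKM in TFIISmut mock. AT2G21640 had 381 FPKM in TFIISmut induced and 29.9 FPKM in TFIISmut mock, with the motif 51 bases before the start. The match is to letters only, and says nothing of which protein binds there.

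The W-box, the sequence bound by WRKY transcription factors, showed a broader pattern. TTGACC or TTGACT stood in 379 of 737 promoters of higher genes, 51.4%, in 55 of 223 of lower genes, 24.7%, and in 4356 of all 13533, 32.2%. By size of difference the share was 51.8% at 2 or more, 51.2% between 1 and 2, 41.5% between 0.5 and 1, 31.6% between 0 and 0.5, and 29.1% between -0.5 and 0. Of the 14 eligible genes on the salicylic acid list described next, 4 held these letters and 0 held the mitochondrial motif. The G-box CACGTG, bound by basic leucine zipper and helix-loop-helix factors, stood in 8.01% of promoters of higher genes, 6.28% of lower genes and 7.87% of all. The GCC box GCCGCC of ethylene response factors stood in 3.26%, 0.448% and 2.44% of them. The evening element AAATATCT of the circadian clock stood in 6.78% of promoters of higher genes, 9.87% of lower genes and 6.10% of all.

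**Figure D2:**
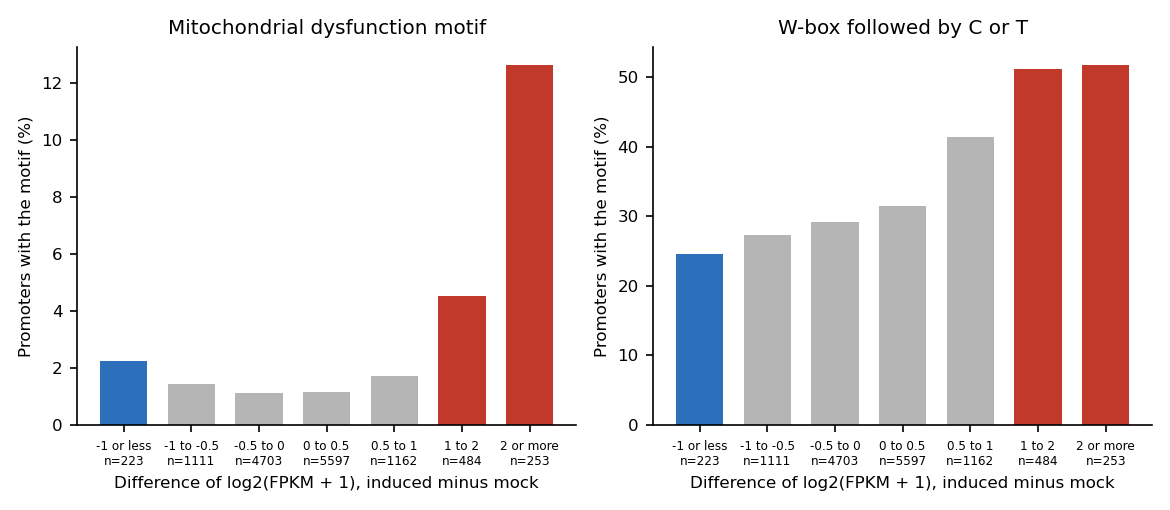
Bars give the percent of 300-base promoters that hold the loose form of the mitochondrial dysfunction motif (left) or TTGACC or TTGACT (right). Genes are grouped by the difference of log2(FPKM + 1), induced minus mock, with the number of genes under each bar. The left bars reach 12.6% at a difference of 2 or more, and the right bars reach about the same height, 51.2% and 51.8%, in both groups of higher genes.

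The promoter of the multidrug efflux transporter gene DTXL2 is shown for the shorter core TTGAC (found in 66.8% of promoters of higher genes, 44.8% of lower genes and 50.4% of all), which the longer letters contain. It is chr2:1355884-1356183, minus strand, with 2 cores 65 and 59 bases before the start, separated by a single base. The cores are in capitals.
DTXL2: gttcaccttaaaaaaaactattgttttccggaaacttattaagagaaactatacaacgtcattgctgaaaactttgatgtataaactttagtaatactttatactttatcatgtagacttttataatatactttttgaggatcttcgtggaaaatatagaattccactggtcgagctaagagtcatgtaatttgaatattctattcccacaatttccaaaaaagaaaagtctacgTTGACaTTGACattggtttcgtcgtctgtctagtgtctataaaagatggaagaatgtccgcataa

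Most eligible genes on the list of salicylic acid, the hormone of defence against biotrophic pathogens, were higher. Of the 14 eligible genes on the list of salicylic acid synthesis and the EDS1 node, 12 were higher and 0 lower, with a median of 1.94; in TFIIS induced against TFIIS mock 0 of 11 were called and the median was -0.24. SARD1, a transcription factor that activates the synthesis genes, had 20.6 FPKM in TFIISmut induced and 1.38 FPKM in TFIISmut mock, with 2.14 FPKM in TFIIS induced and 2.71 FPKM in TFIIS mock. Its partner CBP60G had 15.2 FPKM in TFIISmut induced and 3.55 FPKM in TFIISmut mock. EDS5, which exports the precursor of salicylic acid from the chloroplast, had 15.3 FPKM in TFIISmut induced and 3.12 FPKM in TFIISmut mock. These are 2 regulators and a transporter of the synthesis route. The lipase-like partners of EDS1, PAD4 and SAG101, had 20.2 and 13.4 FPKM in TFIISmut induced and 5.199 and 5.09 FPKM in TFIISmut mock. On the response side, NIMIN-1, an inhibitor of the salicylic acid receptor NPR1, had 25.3 FPKM in TFIISmut induced and 0.950 FPKM in TFIISmut mock, a difference of 3.75 that was the largest on the list. The receptor gene NPR1 itself had 16.7 FPKM in TFIISmut induced and 9.64 FPKM in TFIISmut mock and did not meet the rule, and neither did NPR4. DMR6, which breaks salicylic acid down, was among the higher genes, with 52.6 FPKM in TFIISmut induced and 12.7 FPKM in TFIISmut mock. SARD1, CBP60G, EDS5 and NIMIN-1 were under 5 FPKM in TFIISmut mock and eligible only through TFIISmut induced. The list's count and median are therefore partly set by the rule. The share higher over all eligible genes was 5.51%.

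FMO1, which makes the systemic resistance signal N-hydroxypipecolic acid, had 18.5 FPKM in TFIISmut induced, against 0.590 FPKM in TFIISmut mock, 0.631 FPKM in TFIIS induced and 1.25 FPKM in TFIIS mock. It was the only one called of 3 eligible genes on its list. Of 10 eligible pathogenesis-related and defensin genes, 5 were higher and 0 lower, with a median of 1.31. BG2, the glucanase also known as PR2, had 14.5 FPKM in TFIISmut induced and 0.643 FPKM in TFIISmut mock, and PR5 had 34.2 FPKM in TFIISmut induced and 8.76 FPKM in TFIISmut mock. The jasmonate-dependent defensin gene PDF1.2A had 5.38 FPKM in TFIISmut induced and 7.84 FPKM in TFIISmut mock, and the chitinase gene CHI-B had 25.9 FPKM in TFIISmut induced and 25.7 FPKM in TFIISmut mock. On the jasmonate side, of 10 eligible synthesis genes 2 were higher and the median was 0.20, and of 6 JAZ repressor genes 0 were called with a median of 0.16. Of 15 ethylene genes 2 were higher, ACS2 and ACS6, with a median of 0.41. Genes such as FMO1 and BG2 were under 5 FPKM in TFIISmut mock and eligible only through TFIISmut induced, so these counts and medians do not compare the hormone branches.

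**Figure D3:**
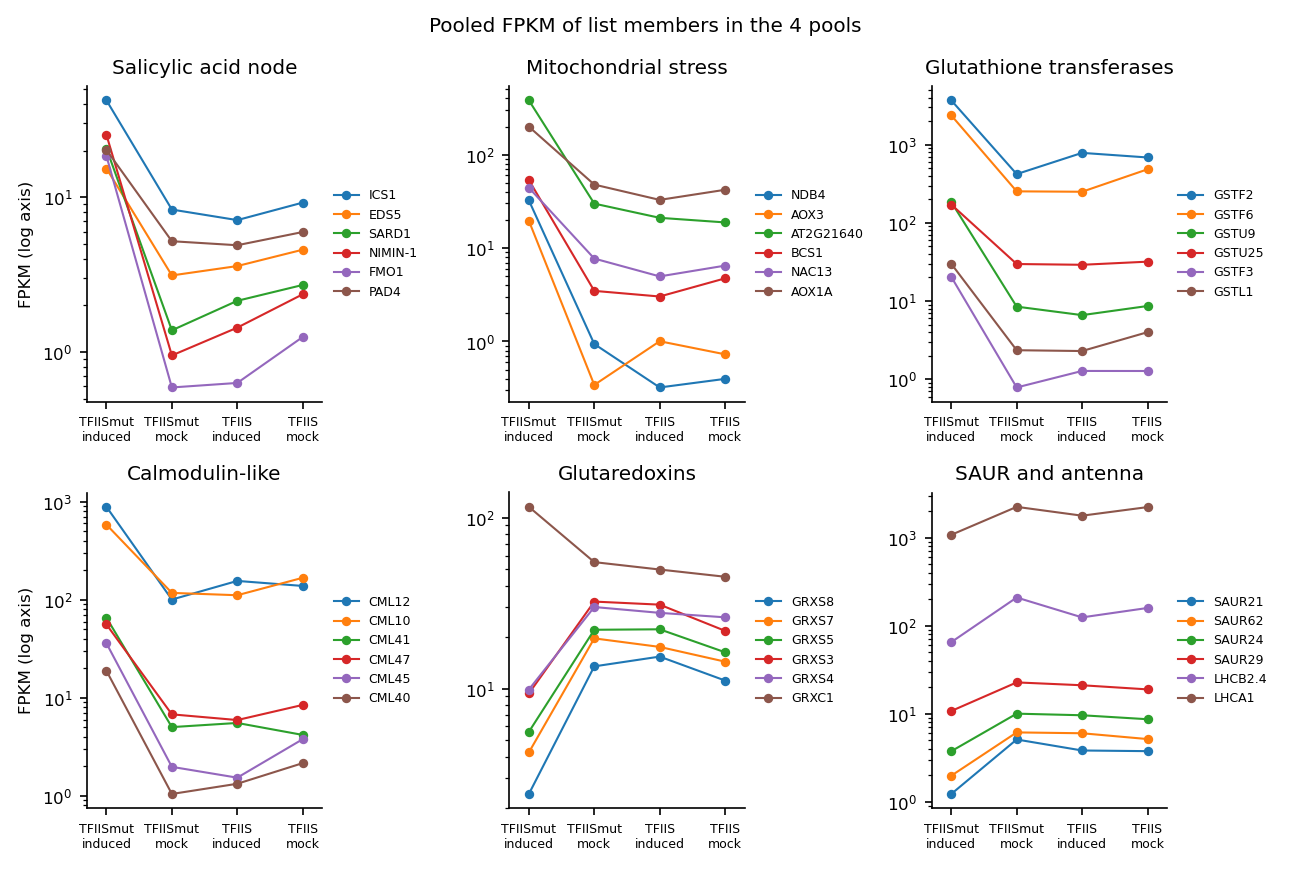
Each line joins the pooled FPKM of a gene, on a log axis, in TFIISmut induced, TFIISmut mock, TFIIS induced and TFIIS mock. In the panels of salicylic acid, mitochondrial stress, glutathione transferase and calmodulin-like genes the first pool is the high one; for 5 glutaredoxin genes, 4 SAUR genes, LHCB2.4 and LHCA1 it is the low one, and GRXC1 is high there.

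Upstream of these, genes for receptors at the cell surface were higher in part. Cysteine-rich receptor-like kinases, a large family induced by pathogens and oxidative stress, had 12 higher and 2 lower of 24 eligible genes, with a median of 0.87. CRK36 had 10.4 FPKM in TFIISmut induced and 0.575 FPKM in TFIISmut mock, and CRK45 had 36.7 FPKM in TFIISmut induced and 6.10 FPKM in TFIISmut mock. CRK21 was lower, with 4.08 FPKM in TFIISmut induced and 13.2 FPKM in TFIISmut mock. So was CRK30. Of 7 eligible wall-associated kinases, which bind pectin fragments, 4 were higher with a family median of 1.202. WAK3 had 9.76 FPKM in TFIISmut induced and 0.0750 FPKM in TFIISmut mock, and WAK1 had 100.2 FPKM in TFIISmut induced and 12.6 FPKM in TFIISmut mock. Of 14 immune receptors and co-receptors 6 were higher with a median of 0.78, among them SOBIR1, the co-receptor of receptor-like proteins, with 43.9 FPKM in TFIISmut induced and 11.5 FPKM in TFIISmut mock. The flagellin receptor gene FLS2 had 13.03 FPKM in TFIISmut induced and 13.2 FPKM in TFIISmut mock, and its co-receptor BAK1 had 29.7 FPKM in TFIISmut induced and 22.7 FPKM in TFIISmut mock. Receptor-like proteins, a list added after its values were seen, had 5 of 8 eligible genes higher, and intracellular disease resistance (NLR) genes had 6 of 31, with a median of 0.15.

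Calcium sensors and the transcription factors of stress followed. Of 26 eligible calmodulin-like genes, 13 were higher and 0 lower, with a median of 0.98. CML12 (AT2G41100), a touch-responsive sensor, had 885 FPKM in TFIISmut induced and 100.5 FPKM in TFIISmut mock, and CML41, which acts at plasmodesmata, had 65.5 FPKM in TFIISmut induced and 5.03 FPKM in TFIISmut mock. CML45 and CML40 had 36.0 and 18.9 FPKM in TFIISmut induced and 1.98 and 1.05 FPKM in TFIISmut mock. Of 35 eligible WRKY genes, 15 were higher and 0 lower, with a median of 0.64. WRKY63 had 64.2 FPKM in TFIISmut induced and 2.48 FPKM in TFIISmut mock, WRKY51 had 24.4 FPKM in TFIISmut induced and 1.09 FPKM in TFIISmut mock, and WRKY46 had 21.9 FPKM in TFIISmut induced and 1.71 FPKM in TFIISmut mock. At the low end WRKY36 had 3.71 FPKM in TFIISmut induced and 6.49 FPKM in TFIISmut mock. VQ proteins, cofactors of WRKY factors and a family picked after its values were seen, had 8 of 14 eligible genes higher and a median of 1.09, led by VQ10 with 15.4 FPKM in TFIISmut induced and 1.12 FPKM in TFIISmut mock. Of 34 NAC genes 9 were higher with a median of 0.48, among them JUB1, a negative regulator of senescence, with 14.9 FPKM in TFIISmut induced and 2.39 FPKM in TFIISmut mock. Of 30 ERF genes 5 were higher, led by the hypoxia-responsive ERF071 with 28.8 FPKM in TFIISmut induced and 1.03 FPKM in TFIISmut mock, and of 10 heat shock factors 3 were higher.

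Detoxification genes included the most abundant of the higher transcripts. Glutathione transferases, which couple glutathione to toxic or reactive compounds, had 13 higher and 0 lower of 37 eligible genes, with a median of 0.35. GSTF2 had 3685 FPKM in TFIISmut induced and 420.1 FPKM in TFIISmut mock, with 785 FPKM in TFIIS induced and 686 FPKM in TFIIS mock. GSTF6 had 2368 FPKM in TFIISmut induced and 253 FPKM in TFIISmut mock, and its neighbour GSTF7 had 1636 FPKM in TFIISmut induced and 176 FPKM in TFIISmut mock. GSTF2, GSTF3, GSTF6 and GSTF7 are near-identical in pairs, so their reads could have been split between copies. In the tau class, GSTU9 had 184 FPKM in TFIISmut induced and 8.48 FPKM in TFIISmut mock, and GSTU25 had 171 FPKM in TFIISmut induced and 29.7 FPKM in TFIISmut mock. At the other end GSTU18 had 13.8 FPKM in TFIISmut induced and 25.3 FPKM in TFIISmut mock. The family was thus split, with 13 members past 2-fold and 24 short of it. Of 52 eligible UDP-glycosyltransferases 8 were higher and 0 lower, with a median of 0.08; UGT74E2, which acts on the auxin indole butyric acid, had 205 FPKM in TFIISmut induced and 46.4 FPKM in TFIISmut mock. Of 72 eligible cytochrome P450 genes 18 were higher and 4 lower, with a median of 0.20. The shares over all eligible genes were 5.51% higher and 1.69% lower.

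Multidrug efflux genes that the list takes by the name DTX had 4 higher of 7 eligible, and these 4 are consecutive on chromosome 2. Over all 27 eligible genes annotated as MATE efflux family proteins, 6 were higher and 0 lower, with a median of 0.09. DTXL2 had 105 FPKM in TFIISmut induced and 0.970 FPKM in TFIISmut mock, DTXL1 had 174 FPKM in TFIISmut induced and 16.4 FPKM in TFIISmut mock, DTX1 had 182 FPKM in TFIISmut induced and 52.1 FPKM in TFIISmut mock, and DTXL3 had 7.14 FPKM in TFIISmut induced and 2.64 FPKM in TFIISmut mock. The remaining 3 eligible members, DTXL5, DTX46 and DTX44, stood between -0.45 and 0.55. ABCG40, an ABC transporter of the plasma membrane, had 19.9 FPKM in TFIISmut induced and 0.912 FPKM in TFIISmut mock. The flotillin genes, for scaffold proteins of membrane microdomains, were all 3 higher, in a list added after its values were seen. FLOT1 had 77.6 FPKM in TFIISmut induced and 3.42 FPKM in TFIISmut mock, and FLOT3 had 6.54 FPKM in TFIISmut induced and 0.687 FPKM in TFIISmut mock. All 3 stood under 5 FPKM in TFIISmut mock and were eligible only through TFIISmut induced, so the count shows nothing about the family.

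Tryptophan metabolism was higher from the start of the pathway. Of 20 eligible genes that lead through tryptophan to camalexin and indole glucosinolates, the sulphur-containing defence compounds of crucifers, 14 were higher and 0 lower, with a median of 1.47. ASA1 and ASB1, the subunits of anthranilate synthase that commits chorismate to tryptophan, had 66.1 and 91.8 FPKM in TFIISmut induced and 29.8 and 32.5 FPKM in TFIISmut mock. TSA1, a tryptophan synthase, had 343 FPKM in TFIISmut induced and 109.6 FPKM in TFIISmut mock. CYP79B2, which takes tryptophan into indolic defence compounds, had 136 FPKM in TFIISmut induced and 48.3 FPKM in TFIISmut mock, while its close relative CYP79B3 had 32.5 FPKM in TFIISmut induced and 28.2 FPKM in TFIISmut mock. The indole regulators differed too: MYB51 had 36.0 FPKM in TFIISmut induced and 7.23 FPKM in TFIISmut mock, and MYB34 had 15.7 FPKM in TFIISmut induced and 20.2 FPKM in TFIISmut mock. Of 15 eligible genes of aliphatic glucosinolate synthesis, which starts from methionine, 0 were called and the median was -0.10.

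Several quality-control lists stood a little above 0 with few genes called. Of 33 eligible 26S proteasome subunits 31 lay above 0 and 0 were called, with a median of 0.40; RPT3 (AT5G58290), an ATPase of the regulatory particle, had 350 FPKM in TFIISmut induced and 209 FPKM in TFIISmut mock. Of 16 eligible genes of the unfolded protein response 16 lay above 0 and 2 were higher, with a median of 0.34; CRT3, a calreticulin of the endoplasmic reticulum, had 86.4 FPKM in TFIISmut induced and 37.8 FPKM in TFIISmut mock. Of 24 eligible autophagy genes 2 were higher, APG8A and ATG12A, with a median of 0.16. That is 8.33%, near the 5.51% over all eligible genes. The 13 eligible DNA damage genes had 3 higher, with a median of 0.48. The 3 are the regulators ANAC044, SMR5 and SMR7; the repair gene BRCA1 had 6.11 FPKM in TFIISmut induced and 5.56 FPKM in TFIISmut mock. Cytosolic ribosomal protein genes had 168 of 190 above 0, 0 called and a median of 0.16; between the mock pools the same list had a median of 0.25, TFIISmut mock minus TFIIS mock. Of 24 eligible histone genes 23 lay above 0 and 0 were called, with a median of 0.26. Genes of the cell cycle and replication had 0 called of 33 and a median of 0.04.

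The transcription machinery was near its mock level apart from TFIIS. Of 17 eligible elongation factor genes the 1 higher was TFIIS, and the median was 0.19; IWS1, which travels with elongating polymerase, had 63.0 FPKM in TFIISmut induced and 43.9 FPKM in TFIISmut mock. Of 25 eligible RNA polymerase subunit genes 0 were called, with a median of 0.23. The 3 largest differences belonged to small subunits, NRPB12 with 1217 FPKM in TFIISmut induced and 741 FPKM in TFIISmut mock, NRPB4 with 127 FPKM in TFIISmut induced and 80.1 FPKM in TFIISmut mock, and NRPB6A with 145 FPKM in TFIISmut induced and 93.0 FPKM in TFIISmut mock. Genes of RNA decay and the exosome had 0 called of 18 and a median of -0.05, with the exoribonuclease gene XRN3 lowest at 18.5 FPKM in TFIISmut induced and 22.3 FPKM in TFIISmut mock.

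Among the lower genes, a group of glutaredoxins stood out, a list added after its values were seen. Glutaredoxins are small thiol proteins, and the plant-specific CC-type class is known to act with TGA transcription factors. Of 21 eligible glutaredoxin genes 8 were lower and 1 higher, with a median of -0.09. In an unbroken row of eligible genes on chromosome 4 (TAIR10.1, 8925571 to 8938124), GRXS8, GRXS7, GRXS4, GRXS5 and GRXS3 were all lower. GRXS7 had 4.23 FPKM in TFIISmut induced and 19.7 FPKM in TFIISmut mock, with 17.5 FPKM in TFIIS induced and 14.4 FPKM in TFIIS mock, a difference of -1.98. GRXS5 had 5.58 FPKM in TFIISmut induced and 22.1 FPKM in TFIISmut mock, GRXS3 had 9.36 FPKM in TFIISmut induced and 32.3 FPKM in TFIISmut mock, and GRXS4 had 9.86 FPKM in TFIISmut induced and 29.99 FPKM in TFIISmut mock. Outside that row GRXC13, GRXC11 and GRXS2 were lower too, on other chromosomes; GRXC13 had 3.88 FPKM in TFIISmut induced and 15.4 FPKM in TFIISmut mock. The CPYC-type genes GRXC1 and GRXC2 stood the other way, GRXC1 with 116 FPKM in TFIISmut induced and 54.9 FPKM in TFIISmut mock, and GRXC2 with 493 FPKM in TFIISmut induced and 257 FPKM in TFIISmut mock, a difference of 0.94. The genes of the row are near copies, so reads may have been shared among them.

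BT1 and BT2, scaffold proteins of nitrate use that the list of nitrate uptake and assimilation contains, were its 2 lower genes of 15 eligible, with a list median of -0.50. BT2 had 110.4 FPKM in TFIISmut induced and 265 FPKM in TFIISmut mock, with 322 FPKM in TFIIS induced and 233 FPKM in TFIIS mock. The glutamate synthase gene GLU1 had 91.5 FPKM in TFIISmut induced and 173 FPKM in TFIISmut mock, while the nitrate transport partner gene NRT3.1 had 87.4 FPKM in TFIISmut induced and 49.9 FPKM in TFIISmut mock. Of 15 eligible genes of sugar starvation 3 were lower and 0 higher, with a median of -0.48, where TFIIS induced against TFIIS mock had 4 higher of 15 and a median of 0.62. ASN1, an asparagine synthetase induced by darkness, had 8.10 FPKM in TFIISmut induced and 23.2 FPKM in TFIISmut mock, against 39.2 FPKM in TFIIS induced and 9.50 FPKM in TFIIS mock.

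Growth-related genes were lower in part, and their counts are to be read beside the 1.69% lower over all eligible genes. SAUR proteins, which promote cell expansion downstream of auxin, had 7 lower and 1 higher of the 14 eligible genes taken by name, with a median of -0.95. Over all 31 eligible genes annotated as SAUR-like, 9 were lower and 1 higher, with a median of -0.63. Of the SAUR genes taken by name, 3 were lower when set against TFIIS mock in place of TFIISmut mock. SAUR21 had 1.23 FPKM in TFIISmut induced and 5.10 FPKM in TFIISmut mock, with 3.82 FPKM in TFIIS induced and 3.76 FPKM in TFIIS mock. SAUR62, SAUR63 and SAUR64 are consecutive on chromosome 1, and SAUR62 had 1.98 FPKM in TFIISmut induced and 6.14 FPKM in TFIISmut mock. Most of these levels are low and the copies are similar. SAUR71, of another clade, was higher, with 22.4 FPKM in TFIISmut induced and 7.70 FPKM in TFIISmut mock. Aux/IAA repressors had 0 called of 18 and a median of -0.13, with IAA1 lowest at 6.86 FPKM in TFIISmut induced and 14.5 FPKM in TFIISmut mock. Of the wall-loosening proteins, 1 of 17 expansins was lower, EXPA8, with 8.25 FPKM in TFIISmut induced and 23.9 FPKM in TFIISmut mock, and the family median was -0.38; of 20 xyloglucan endotransglucosylases 1 was lower, XTH6, with a median of -0.15. Proline-rich extensin-like proteins of the wall, picked after their values were seen, had 4 lower of 8 and a median of -0.98. Of 22 aquaporins 3 were lower and the median was -0.62; PIP2-2 had 30.7 FPKM in TFIISmut induced and 69.5 FPKM in TFIISmut mock.

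Photosynthesis genes were lower as lists, with few of them past 2-fold. Of 14 eligible light-harvesting antenna genes 13 lay below 0 and 3 were lower, with a median of -0.90, beside -0.32 in TFIIS induced against TFIIS mock. LHCB2.4 had 65.1 FPKM in TFIISmut induced and 209 FPKM in TFIISmut mock, with 124 FPKM in TFIIS induced and 159 FPKM in TFIIS mock. LHB1B1, an antenna gene that the list's naming pattern missed, had 391 FPKM in TFIISmut induced and 1115 FPKM in TFIISmut mock, with 1045 FPKM in TFIIS induced and 1010.2 FPKM in TFIIS mock. The antenna gene LHCB4.3 had 10.6 FPKM in TFIISmut induced and 6.99 FPKM in TFIISmut mock, so it did not follow. Of 18 photosystem subunits 18 lay below 0 and 1 was lower, with a median of -0.63, and of 14 Calvin cycle genes 12 lay below 0 and 2 were lower, with a median of -0.71. PRK, the phosphoribulokinase of that cycle, had 319 FPKM in TFIISmut induced and 644 FPKM in TFIISmut mock. Of 18 chlorophyll synthesis genes 17 lay at or below 0 and 0 were called, with a median of -0.51; CHLM had 123 FPKM in TFIISmut induced and 214 FPKM in TFIISmut mock. RBCS-1A, LHCB1.2 and LHCB1.3 are listed at 0 in TFIISmut mock beside 10433, 1745 and 5739 FPKM in TFIISmut induced, and were left out.

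**Figure D4:**
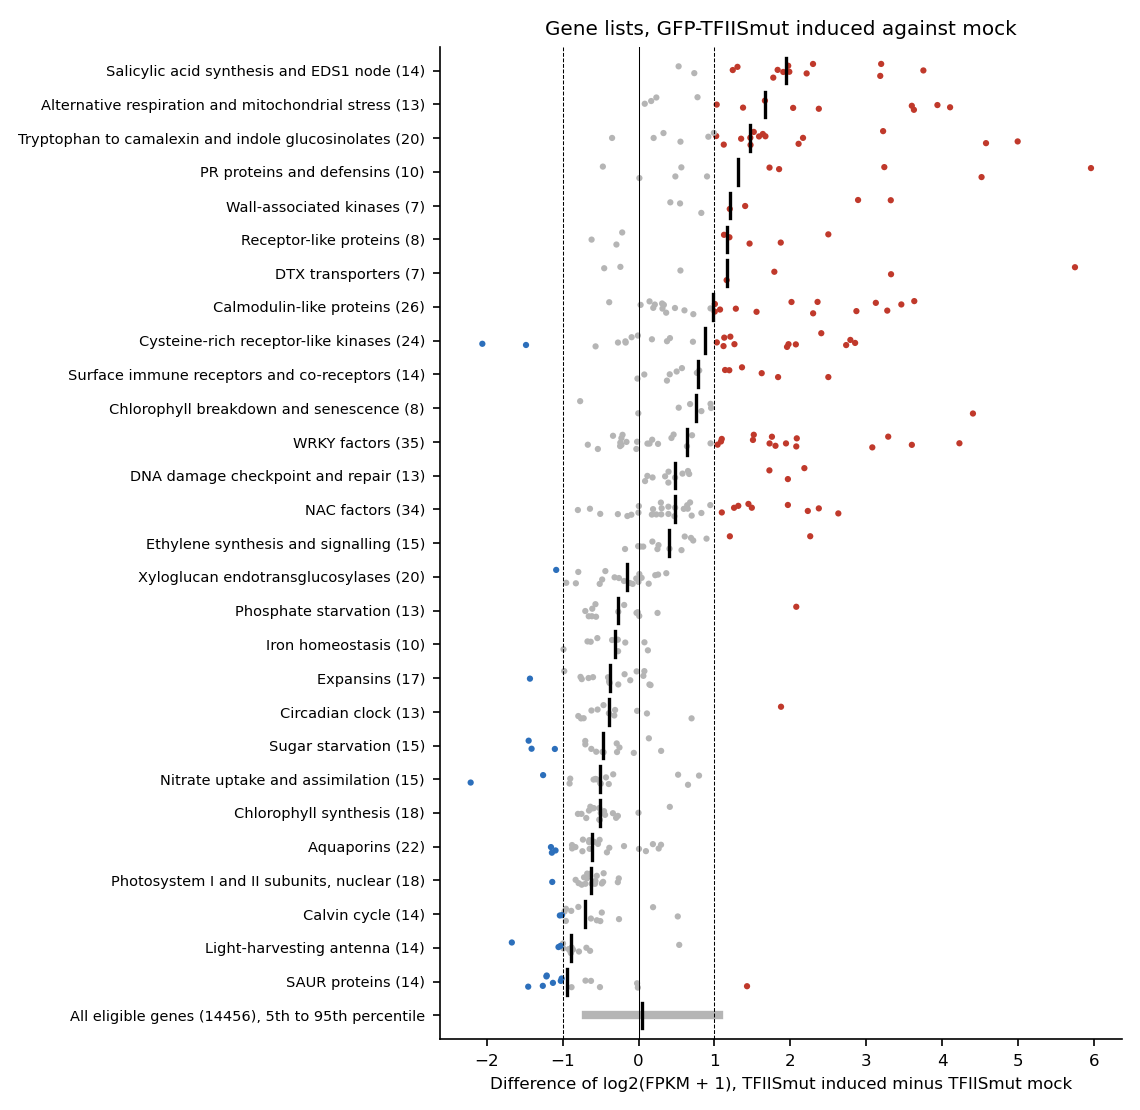
Each point is an eligible gene of a list (number of genes in parentheses), placed at its difference of log2(FPKM + 1), TFIISmut induced minus TFIISmut mock; black bars are list medians, and dashed lines mark -1 and 1. The lists shown have the 15 highest and 13 lowest medians among those with 5 or more eligible genes, with cell type markers and families picked by product left out, from 1.94 for salicylic acid synthesis to -0.95 for SAUR proteins; the grey bar at the bottom spans the 5th to 95th percentile of all eligible genes.

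The remaining process lists had few calls, to be read beside 5.51% higher and 1.69% lower over all eligible genes. Abscisic acid and drought genes had 2 higher and 1 lower of 14 eligible, with a median of 0.14; the TFIIS mock pool stood high for this list, where TFIIS induced against TFIIS mock had 13 lower of 18. Of 8 eligible genes of chlorophyll breakdown and senescence 1 was higher, SAG13, with a median of 0.75. Of 13 clock genes 1 was higher, LHY, with a median of -0.39. Of 13 phosphate starvation genes 1 was higher, WRKY75, with a median of -0.27. Iron homeostasis genes had 0 called of 10 and a median of -0.31, and flavonoid synthesis genes 0 of 5 and -0.01. Class III peroxidases had 1 higher and 2 lower of 42 and a median of -0.10.

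Markers of single cell types were summed over each list as a check on tissue makeup. The 8 guard cell lineage genes summed to 30.7 FPKM in TFIISmut induced, against 53.4 FPKM in TFIISmut mock, 53.1 FPKM in TFIIS induced and 53.2 FPKM in TFIIS mock. Of 5 eligible, MYB60 and KAT1 were lower, with 3.96 and 1.92 FPKM in TFIISmut induced and 10.7 and 7.03 FPKM in TFIISmut mock. The 6 root endodermis genes summed to 28.7 FPKM in TFIISmut induced and 46.8 FPKM in TFIISmut mock, the 5 root hair genes to 11.2 FPKM in TFIISmut induced and 19.9 FPKM in TFIISmut mock, and the 6 xylem genes to 63.8 FPKM in TFIISmut induced and 84.0 FPKM in TFIISmut mock. Phloem markers had a median of -0.25 over 4 eligible genes, shoot meristem markers -0.23 over 2, and the trichome marker TTG1 a difference of 0.23. The seed marker EM6 was higher, with 8.36 FPKM in TFIISmut induced and 0.0150 FPKM in TFIISmut mock, and EM1 is listed at 0 in TFIISmut mock. In whole seedlings, fewer cells of a type and less RNA per cell cannot be told apart, and the part of tissue makeup in the differences above was not tested.

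Gene structure, which the rule does not use, differed between called genes and the rest. Among 13534 eligible nuclear protein-coding genes with a row of their own, the 737 higher genes had a median annotated length of 1824 bases and 2 exons, the 223 lower genes 1751 bases and 3 exons, and all of them 2416.5 bases and 5 exons. Of the higher genes 32.0% had no intron, of the lower genes 29.6%, and of all 13.3%. In 5 equal groups of gene length, from shortest to longest, 10.9%, 6.80%, 4.29%, 3.399% and 1.85% of genes were higher, and 3.73%, 1.44%, 1.11%, 1.11% and 0.850% were lower. The shortest genes were therefore called most often in both directions. All these figures include genes under 5 FPKM in TFIISmut mock, which were eligible only through TFIISmut induced. In the upper 4 of 5 groups of TFIISmut mock level, 3.32% to 6.83% of the shortest genes were higher and 0.738% to 0.924% of the longest. In the same groups 2.58% to 4.61% of the shortest genes were lower and 0.370% to 2.77% of the longest.

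The middle of the distribution moved with length too. The median difference was 0.17, 0.13, 0.09, 0.03 and -0.09 in those groups for TFIISmut induced against TFIISmut mock, and -0.04, 0.00, 0.00, 0.02 and 0.07 for TFIIS induced against TFIIS mock. In the longest group, genes of 3642 to 23544 bases, 35.9% of genes lay above 0, against 63.2% in the shortest, genes of 96 to 1592 bases. By exon number the median was -0.06 in genes of 11 or more exons and 0.16 in genes of 1 exon. The trend with length was present among genes of 6 or more exons, where the shortest group had a median of 0.09 and the longest -0.13. Among single-exon genes, it was 0.19 in the shortest group and 0.09 in the longest. In the upper 4 of 5 groups of TFIISmut mock level, the longest genes had a median of -0.12 to -0.02, and the shortest a median of 0.07 to 0.17. The lowest level group is not read, since its genes under 5 FPKM were eligible only through TFIISmut induced. The mock pools set against each other had medians of 0.01 to 0.03 over the same length groups. Length enters the FPKM scale, and RNA quality per library is unknown here; their part in this trend was not tested.

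**Figure D5:**
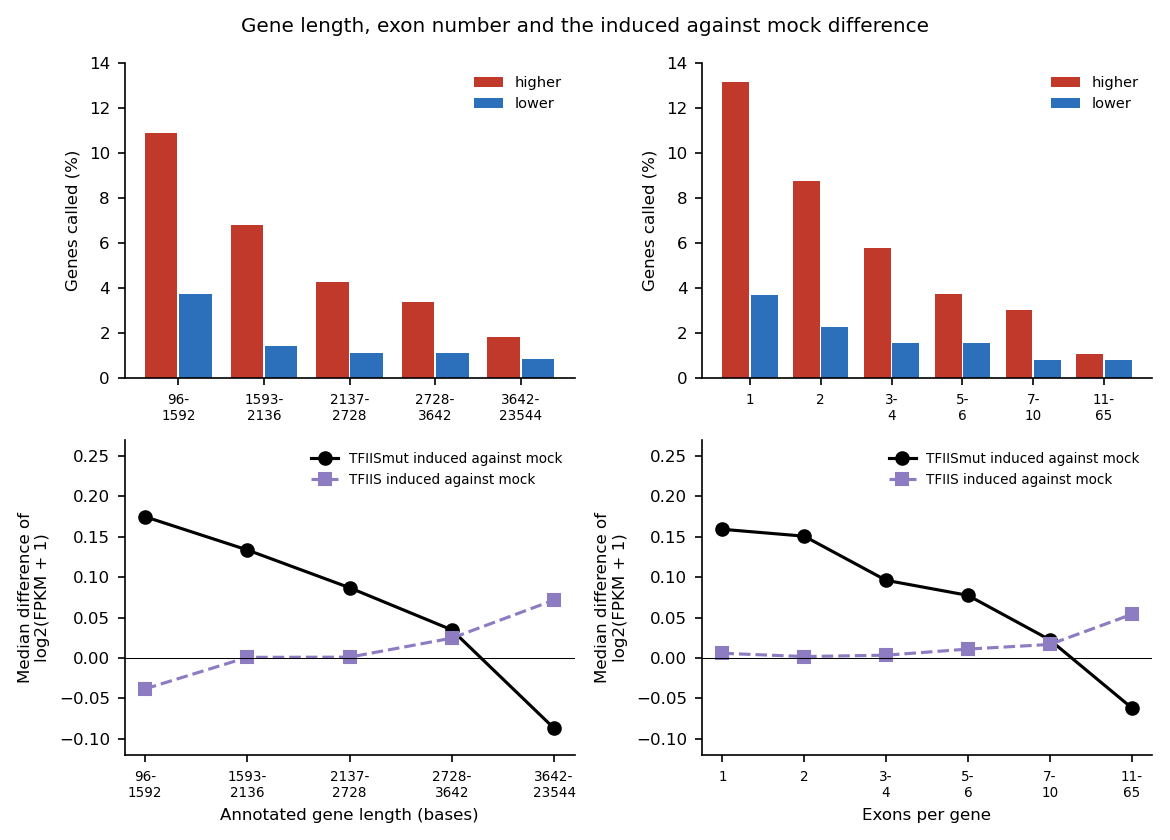
Upper bars give the percent of eligible nuclear protein-coding genes called higher (red) or lower (blue) by group of annotated gene length (left) and by exon number (right); lower lines give the median difference of log2(FPKM + 1) in the same groups for TFIISmut induced against mock (circles) and TFIIS induced against mock (squares). The circles fall across length to -0.09 while the squares end at 0.07.

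Some called genes were neighbours. Of the 737 higher protein-coding genes, 187, 25.4%, stood next to another higher gene in the order of eligible genes, in 79 runs, of which 20 held 3 or more genes. Of the 223 lower genes 30, 13.5%, did so, in 13 runs. The order held 13534 genes, and the share of neighbours that the number of called genes alone would give was not worked out. The longest run held 7 genes on chromosome 4 (12121369 to 12167026), namely CRK6, CRK9, CRK10, CRK11, CRK13, CRK14 and EMB1290. The next held 5 TIR-domain genes on chromosome 1 (27432178 to 27443859), of which TIR (AT1G72930) had 187 FPKM in TFIISmut induced and 44.7 FPKM in TFIISmut mock, and AT1G72910 had 9.27 FPKM in TFIISmut induced and 1.86 FPKM in TFIISmut mock. WAK3, WAK1 and WAK2 on chromosome 1 formed a run of 3, as did the P450 genes CYP71B23, CYP71B3 and CYP71B24 and the zinc finger genes ZAT8, ZAT7 and AT3G46070 on chromosome 3. ZAT7, a stress-responsive repressor, had 33.9 FPKM in TFIISmut induced and 1.499 FPKM in TFIISmut mock. The runs named above are largely tandem copies of a family, which share sequence. Others mix families, such as a run of 3 on chromosome 3 with AtRLP34 and DREB2B.

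Of the eligible nuclear genes that are not protein-coding, calls went in both directions for some classes. Of 34 small nucleolar RNA genes 5 were higher and 7 lower, of 75 long non-coding RNA genes 6 were higher and 1 lower, and of 13 microRNA precursor genes 2 were higher and 2 lower. Of 5 small nuclear RNA genes 4 were higher and 0 lower, and of 30 transcribed pseudogenes 7 were higher and 0 lower. Over all eligible genes 5.51% were higher and 1.69% lower. With so few genes in each class, nothing about the classes is read from these counts. MIR169A had 0.501 FPKM in TFIISmut induced and 5.39 FPKM in TFIISmut mock, but 1.07 FPKM in TFIIS induced and 2.82 FPKM in TFIIS mock. These transcripts are short, and some differed widely between pools: SNOR30 had 3.33 FPKM in TFIISmut induced and 13.7 FPKM in TFIISmut mock beside 59.7 FPKM in TFIIS induced and 4.15 FPKM in TFIIS mock. Organelle rows had 4 higher and 3 lower of 29 eligible, with a median of 0.28, where the same rows had a median of 3.28 in TFIIS induced against TFIIS mock. PSBE with its neighbours, a chloroplast row of photosystem II subunits, had 202 FPKM in TFIISmut induced and 51.9 FPKM in TFIISmut mock, beside 1022 FPKM in TFIIS induced and 50.2 FPKM in TFIIS mock.

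The values nearest the limit of the rule show how little separates the groups there. CML35, with 132 FPKM in TFIISmut induced and 65.2 FPKM in TFIISmut mock, and AT3G23570, with 69.4 FPKM in TFIISmut induced and 34.1 FPKM in TFIISmut mock, were just inside the higher group, and SAP6, with 61.9 FPKM in TFIISmut induced and 30.5 FPKM in TFIISmut mock, was just outside. PRK, BZIP63 with 32.4 FPKM in TFIISmut induced and 66.0 FPKM in TFIISmut mock, and CIL were just inside the lower group, and LHCB3, with 1383 FPKM in TFIISmut induced and 2759 FPKM in TFIISmut mock, was just outside. Among the lower genes farthest from the limit, RL1, a RADIALIS-like MYB protein, had 0.761 FPKM in TFIISmut induced and 5.81 FPKM in TFIISmut mock, and FRO6, a ferric reductase of green tissue, had 0.928 FPKM in TFIISmut induced and 6.13 FPKM in TFIISmut mock. GASA6, a gibberellin-regulated peptide gene, had 45.6 FPKM in TFIISmut induced and 147 FPKM in TFIISmut mock, with 74.8 FPKM in TFIIS induced and 82.6 FPKM in TFIIS mock, so part of its distance lies in a high mock pool.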

How the data were processed

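The authors deposited 1 table with 1 value per gene and group, in which the 3 libraries of each group are already combined; reads were aligned with Bowtie2 2.3.5, per the submitters' processing notes. The deposited values are read here as FPKM, from their headers and sums, and the abbreviated column names as the 4 groups; neither reading is stated outright. For quantification, neither tool nor build nor annotation is named: not given in the sources used here. RNA was made into stranded mRNA libraries, per the labels' protocols. With pooled values no test, error or interval could be had, and the depth is unknown.

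Repeated identifiers and rows at 0 in either compared pool were left out, 1 was added before log2, and a difference of at least 1 with a larger value of at least 5 FPKM was called 2-fold. Of the 32667 rows kept, 32009 identifiers matched RefSeq TAIR10.1, which gave names, gene structure and promoters; 751 rows that merge several genes stayed out of lists. Members and lists were chosen with earlier results of these data known; the lists of glutaredoxins, flotillins, receptor-like proteins and the VQ, extensin-like, DUF295 and TIM families were added, and how some lists take genes by name was corrected, after values were seen. The text names TFIIS, genes among the 25 largest and 25 smallest differences, up to 6 leading members of each list and up to 2 opposed ones, up to 5 organelle rows, and genes next to the limit; any other gene named was chosen after its values were seen. Scripts used Python 3.11.15, pandas 2.3.3, numpy 2.4.6 and matplotlib 3.10.9, and were tested on simulated data. Alternatives were other scalings, minimums, pseudocounts, folds and the other mock pool; those on gene length and promoter length were chosen after seeing the data. A few items among these results are not reported here.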

Additional observations from a re-analysis of the deposited data

Results flagged for a closer look

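Induced against mock differences had opposite signs in the lines for 24 nuclear protein-coding genes that passed the 2-fold rule in both. With 1 pool a group, the difference between the lines was not tested. Higher in TFIISmut induced than in TFIISmut mock, and lower in TFIIS induced than in TFIIS mock, were 15 genes. Their differences of log2(FPKM + 1) in the TFIISmut line were 5.96 for PR1, 3.31 for LURP1, 2.58 for AT3G18250, 2.29 for AT1G76960, 2.26 for CHI, 2.24 for AT3G22235, 2.20 for AT1G53625, 2.11 for CYP71A12, 2.03 for DIP2, 1.81 for AT3G13240, 1.62 for AT5G54165, 1.4830 for RAB18, 1.22 for KIN1, 1.14 for AT3G02480 and 1.08 for AT4G02360. In the TFIIS line the same genes lay between -5.14 and -1.01. PR1 had 2.89 FPKM in TFIIS induced and 8.44 FPKM in TFIIS mock. RAB18, a dehydrin of the abscisic acid response, had 6.76 FPKM in TFIISmut induced and 1.78 FPKM in TFIISmut mock, beside 2.39 FPKM in TFIIS induced and 119 FPKM in TFIIS mock, so the TFIIS mock pool was the high one. The opposite held for 9 genes, whose differences in the TFIISmut line were -1.11 for AT2G05540, -1.17 for AT3G19850, -1.23 for AT3G20340, -1.23 for AT5G14120, -1.27 for BGAL1, -1.41 for ASN1, -1.45 for STR15, -1.69 for BXL1 and -2.21 for BT1. In the TFIIS line they lay between 1.01 and 1.94. The mock pools differed throughout: TFIIS mock stood above TFIISmut mock in all 15 genes of the first set and below it in all 9 of the second. KIN1 had 120 FPKM in TFIIS mock and 7.91 FPKM in TFIISmut mock, and ASN1 had 9.50 and 23.2 FPKM. The part of the mock levels in the opposite signs was not tested.

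Rows listed at 0 in TFIISmut mock were left out. Of the protein-coding ones, 4 reached 5 FPKM in TFIISmut induced, were above 0 in both TFIIS pools and stood 2-fold above the higher of these; rows of small RNAs and rows at 0 in a TFIIS pool were not considered. They are SESA5, a seed storage albumin, at 6.301 FPKM, AT3G04854 at 39.5 FPKM, AT2G07684 at 30.002 FPKM and AT1G68250 at 10.06 FPKM. These differences were not tested, and a listed 0 can be a failed estimate, as for the abundant RBCS-1A.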

How the results depend on the processing

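No paired analysis was possible because the deposited columns pool the 3 libraries of each group; nor could any library be left out. Counts of 796 higher and 244 lower genes became 877 and 296 with a pseudocount of 0.1, 688 and 324 after quantile normalization, 744 and 272 with a common median, 652 and 350 after removal of organelle genes and rescaling to a common sum, 692 and 350 against TFIIS mock (587 and 141 of them among the 796 and 244), 690 and 319 with the 20 most abundant genes left out and the same rescaling, 1024 and 286 with a minimum of 1 FPKM or none, 615 and 198 with a minimum of 10 FPKM, 820 and 263 with rows at 0 kept, and 401 and 36 at 3-fold. The higher genes' share of calls was 76.5%, against 65.1% with organelle genes left out and rescaling, 66.4% against TFIIS mock and 91.8% at 3-fold. With organelle genes left out and rescaling, the median of all genes was -0.08 (0.05 as deposited). Against TFIIS mock, 213 differences of named genes and 20 medians of lists or length groups moved by more than the robust SD between the mock pools. At 3-fold, 8 genes of tryptophan to camalexin, 8 calmodulin-like genes, 1 lower antenna gene and 0 lower SAUR genes were called, where the 2-fold rule gave 14, 13, 3 and 7. The lower antenna genes numbered 7 after quantile normalization, 5 with a common median and 9 with organelle genes left out and rescaling. The lower SAUR genes numbered 3 against TFIIS mock, 11 with a minimum of 1 FPKM or none, and 2 at 10 FPKM. Against TFIIS mock TRNP ATCG00620 reversed to 1.55, RAB18 AT5G66400 to -3.95 and KIN1 AT5G15960 to -2.55, and at 10 FPKM the median of receptor-like proteins reversed to -0.22; the cause was not tested. The loose form of the mitochondrial dysfunction motif stood in 5.70% of higher genes' promoters with a shorter promoter window, beside 1.01% of all promoters. With a longer window it stood in 9.36%, beside 2.82% of all promoters. The shares called in the shortest and longest genes stayed within 1.5 times under quantile normalization and against TFIIS mock. Unknown depth limits all low values.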
